A study of Phalaenopsis x intermedia with 4 samples.

Results

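PaPe63, PaPe89, PaPe52 and PaPe76 are 4 of the 90 F1 progeny with a column in the deposited genotype table, from the cross of Phalaenopsis aphrodite (Pa) and P. equestris (Pe), whose hybrid is known as P. Intermedia. They are described here against the 56 other well-called progeny, the plants with missing calls at no more than 50% of table entries. The last plant inside that limit, PaPe6, had 40.1% of calls missing, and the first outside it, PaPe69, had 69.0%. The 4 plants were chosen by their distances, computed from these same calls, so their distances, blocks and heterozygosity at the SNPs described below are given as a description of the choice and were not tested. Leaf DNA was cut with HinP1I and HaeIII (sequenced on a MiSeq) or with ApeKI and HaeIII (on a HiSeq), with 1 library for each of 2 plates per enzyme pair. Each of the 4 libraries pooled many plants, and the deposited table merges them into 92 plant columns (90 progeny, Pa and Pe) with 1 genotype call per SNP. The origin of a call (enzyme pair and plate), its read depth and whether it was imputed are not recorded in the table. Every plant has 1 column, so no value has a replicate, and the labels give no treatment or age.

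In the F1 of a cross between outbred parents, a SNP that is heterozygous in 1 parent segregates, and full sibs share alleles in proportions that vary little over the whole genome. Genotyping by sequencing (GBS) reads only the ends of restriction fragments, so that a SNP is called in a plant only where a read covered it. A homozygous call can come from a true homozygote or from a heterozygote of which a single allele was read. Imputation by nearest neighbours fills a missing call from plants with similar calls. Because neighbouring SNPs are inherited together, SNPs are not independent observations.

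Of the 113517 SNPs with 2 base alleles on chromosomes 1 to 19, 105873 (93.3%) had missing calls in more than 20% of the 92 columns. They are called sparsely called SNPs here, and the remaining 7644 widely called SNPs. At the limit, 413 SNPs with 19 columns missing fell inside and 450 SNPs with 18 missing fell outside. Among the sparsely called SNPs, the share of missing calls was 23.8% in PaPe63, 23.2% in PaPe89, 9.65% in PaPe52 and 6.75% in PaPe76. The other progeny ranged from 0.822% to 43.0%, with a median of 2.01%. By rank all 4 plants were high, with 54 of the 56 plants below PaPe63 and 51 below PaPe76, although PaPe52 and PaPe76 were far from the highest value. The 92 columns include 30 progeny that were not well called, and both names for the SNPs refer to all 92 columns. Among the 56 plants, the median share of missing calls was 2.90% at widely called SNPs, against 2.01% at sparsely called SNPs. The names therefore do not rank the SNPs by missing calls in these plants.

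The 4 plants formed 2 close pairs that lay far from each other. Genotype distance was the mean difference in allele dosage divided by its maximum, so that 0 means the same calls and 1 means opposite homozygotes at every SNP. PaPe63 and PaPe89 were 0.0892 apart over 75123 sparsely called SNPs called in both. PaPe52 and PaPe76 were 0.164 apart over 92804 SNPs. These were the lowest and second lowest distances of all 1770 pairs of the 60 well-called progeny, and the next pair was at 0.273. Between the pairs, the distance was 0.645 for PaPe63 and PaPe52, 0.653 for PaPe63 and PaPe76, 0.646 for PaPe89 and PaPe52 and 0.652 for PaPe89 and PaPe76. These were the 4 highest of all pairs, and the next highest distance was 0.420.

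Towards all other plants the 4 plants were nearly equidistant. The distance of PaPe63 to the 56 plants ranged from 0.383 to 0.395, and that of PaPe89 from 0.383 to 0.396. PaPe52 ranged from 0.405 to 0.419 and PaPe76 from 0.408 to 0.420. The nearest of the 56 was PaPe26 for PaPe63, PaPe7 for PaPe89, PaPe42 for PaPe52 and PaPe13 for PaPe76. By contrast, distances among the 56 spanned 0.273 to 0.402, with a median of 0.345. The 4 plants were also about as far from 1 parent as from the other. PaPe63 was 0.388 from Pa and 0.387 from Pe, and PaPe76 was 0.413 from Pa and 0.415 from Pe. For PaPe89 these values were 0.391 and 0.387, and for PaPe52 they were 0.414 and 0.415. The parents themselves were 0.306 apart at these SNPs.

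**Figure D1:**
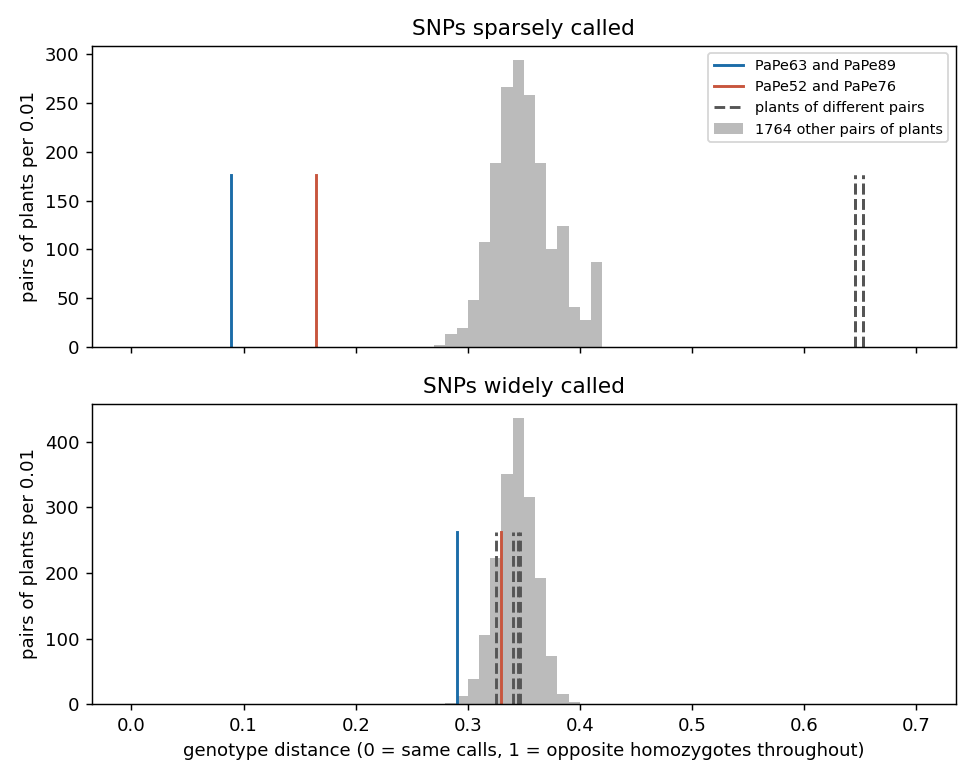
Histogram of genotype distance (x axis, no unit) over 1764 pairs of well-called progeny (grey, number of pairs per 0.01), with lines for the 6 pairs among the 4 plants, at sparsely called (top) and widely called (bottom) SNPs. The close pairs at 0.0892 and 0.164 and the distances between pairs from 0.645 to 0.653 lie outside the grey range at sparsely called SNPs, whereas all 6 lie within it at widely called SNPs.

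At the widely called SNPs the same plants did not stand apart. PaPe63 and PaPe89 were 0.291 apart, the third lowest of 1770 pairs. PaPe52 and PaPe76 were 0.329 apart, with 369 pairs closer to each other, and the distances between the pairs ran from 0.325 to 0.347. The other pairs ranged from 0.286 to 0.392 with a median of 0.343. Thus only PaPe63 and PaPe89 remained at the edge of the distribution. At these SNPs the parents were 0.655 apart. Widely called SNPs had a small share in the distances that chose the plants.

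SNPs placed on a chromosome labelled 20 played no part in the choice. Over its 832 SNPs, PaPe63 and PaPe89 were 0.269 apart, with 3 pairs closer to each other, and PaPe52 and PaPe76 were 0.279 apart, with 12 pairs closer to each other. Distances between the pairs ran from 0.359 to 0.406, and PaPe89 and PaPe76 were the second most distant of all pairs. The remaining pairs ranged from 0.261 to 0.406. None of the 6 distances left that range. The order of the pairs depended on the SNPs of this label that were used. At its 295 sparsely called SNPs PaPe63 and PaPe89 were 0.335 apart, with 233 pairs closer, PaPe52 and PaPe76 were 0.273 apart, with 8 pairs closer, and the mean distance between the pairs was 0.467, below the highest value of the other pairs (0.562). At its 537 widely called SNPs these values were 0.245 (6 pairs closer), 0.281 (191 pairs closer) and 0.344.

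The pattern at sparsely called SNPs was the same on every chromosome. PaPe63 and PaPe89 were the closest of 1770 pairs on all 19 chromosomes, from 0.0610 on chromosome 9 to 0.113 on chromosome 11. PaPe52 and PaPe76 ranged from 0.149 on chromosome 1 to 0.210 on chromosome 14. They were the second closest on 4 chromosomes, and some pairs of the 56 were closer on chromosomes with fewer SNPs, as on chromosome 14, where 144 pairs were closer. The mean distance between the pairs lay between 0.607 on chromosome 11 and 0.681 on chromosome 9. On all 19 chromosomes each of the 4 distances between the pairs exceeded that of every other pair of plants.

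**Figure D2:**
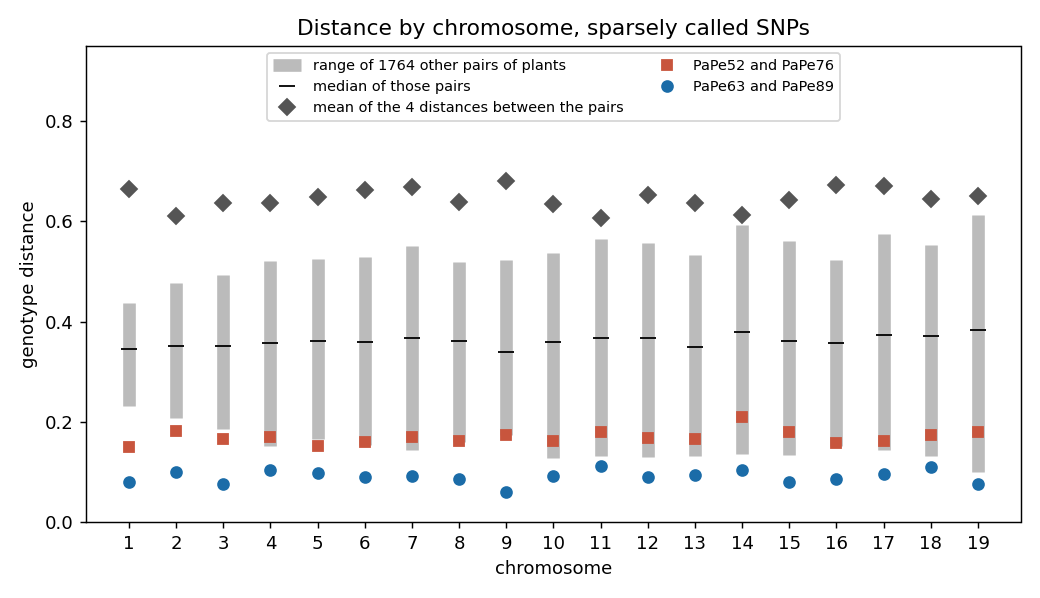
Genotype distance (y axis, no unit) by chromosome at sparsely called SNPs for PaPe63 and PaPe89 (circles), PaPe52 and PaPe76 (squares) and the mean of the 4 distances between the pairs (diamonds), with the range and median of 1764 other pairs of well-called progeny (bars and dashes). Circles lie under and diamonds above the bar on each of the 19 chromosomes, and squares lie near its lower end.

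Most calls within a pair were identical. PaPe63 and PaPe89 had the same call at 87.0% of SNPs called in both (75.7% the same homozygote and 11.3% both heterozygous). They were opposite homozygotes at 4.81% and differed by 1 heterozygous call at 8.23%. PaPe52 and PaPe76 had the same call at 77.4% (64.02% the same homozygote and 13.4% both heterozygous), and were opposite homozygotes at 10.3%. Neither pair was therefore identical in this table. Between the pairs the order turned around. PaPe63 and PaPe52 were opposite homozygotes at 51.1% of SNPs and both heterozygous at only 0.440%, and PaPe89 and PaPe76 at 51.3% and 0.431%.

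The rarer allele of a SNP, taken as the second allele listed for it, was almost never carried by both pairs. PaPe63 carried it at 39.5% of called SNPs, PaPe89 at 39.8%, PaPe52 at 46.0% and PaPe76 at 47.2%, against 40.5% to 49.7% in the 56 plants. Yet PaPe63 and PaPe52 both carried it at 1723 of 71650 SNPs (2.40%), and PaPe89 and PaPe76 at 1921 of 75001 (2.56%). In the 1764 remaining pairs of plants this share ranged from 17.9% to 31.3%. Divided by the product of the 2 plants' own shares, which corrects for how often each carried the rarer allele, sharing between the pairs came to 0.145 to 0.149. The remaining pairs ran from 0.980 to 1.36 with a median of 1.15. Within the pairs the same ratio was 2.18 for PaPe63 and PaPe89 and 1.73 for PaPe52 and PaPe76, the highest and second highest of all. At widely called SNPs the ratio between the pairs was 1.16 to 1.22, inside the range of the remaining pairs (1.04 to 1.39).

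At 47684 SNPs all 4 plants were called and each pair was alike. The rarer allele was carried by PaPe63 and PaPe89 alone at 19301 of these (40.5%) and by PaPe52 and PaPe76 alone at 21513 (45.1%). Neither pair carried it at 6446 (13.5%), and both did at 424 (0.889%). By chromosome, the share of SNPs with exactly 1 carrying pair lay between 80.8% on chromosome 2 and 88.1% on chromosome 16. The ratio of sharing between the pairs had a mean between 0.114 on chromosome 6 and 0.236 on chromosome 2. Chromosome 9 differed in the balance of the pairs. There PaPe63 and PaPe89 alone carried the rarer allele at 29.8% of SNPs and PaPe52 and PaPe76 alone at 54.0%, whereas on the other chromosomes the former share was 37.2% to 44.9%.

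**Figure D3:**
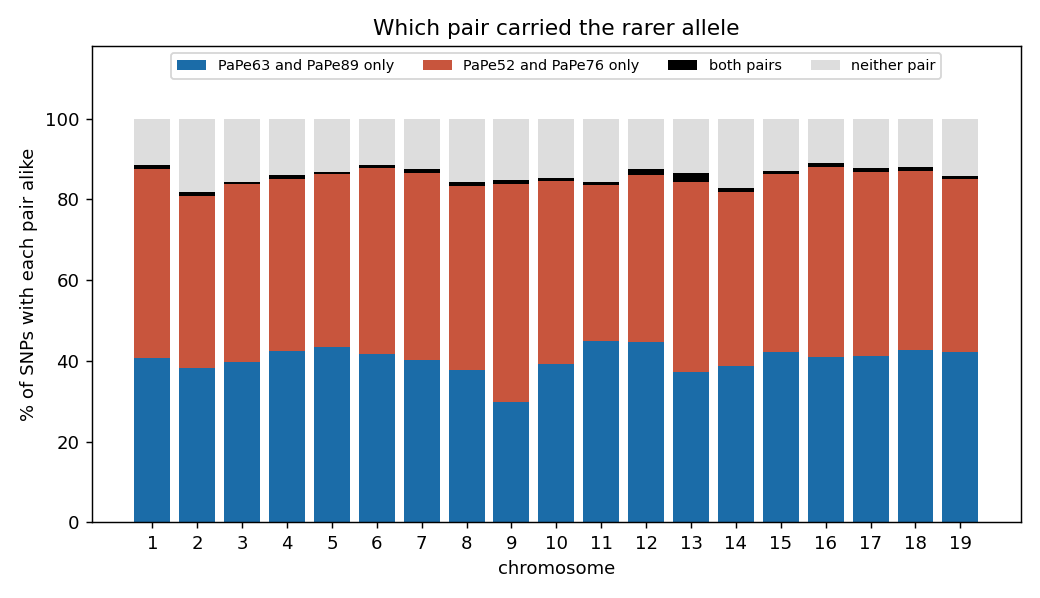
Share of sparsely called SNPs (y axis, percent of SNPs called in all 4 plants with each pair alike) at which the rarer allele was carried by PaPe63 and PaPe89 only, PaPe52 and PaPe76 only, both pairs or neither, by chromosome. The segment for both pairs is at most 2.20% (chromosome 13), and chromosome 9 has the smallest segment for PaPe63 and PaPe89 (29.8%).

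Missing calls also followed the pairs. PaPe63 and PaPe89 were both missing at 19053 sparsely called SNPs, which is 75.6% of the missing calls of PaPe63 and 77.5% of those of PaPe89. As a share of the SNPs missing in either plant this was 0.620, the highest of 1770 pairs, whose next value was 0.510. PaPe52 and PaPe76 shared 4299 missing calls, 42.1% of those of PaPe52 and 60.1% of those of PaPe76. Their overlap of 0.329 was above the median of all other pairs (0.172), with 69 pairs higher. Between the pairs the overlap was 0.0283 to 0.0355, in the lower part of the range of other pairs (0.0144 to 0.510). The part of missing calls and of their imputation in the close pairs was not tested.

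Heterozygosity of the 4 plants was at or below the low end of the other plants at sparsely called SNPs and within their range at widely called SNPs. At sparsely called SNPs 14.4% of calls were heterozygous in PaPe63, 14.7% in PaPe89, 18.3% in PaPe52 and 19.5% in PaPe76. The 56 plants ranged from 17.6% to 32.2% with a median of 27.4%. PaPe63 and PaPe89 were below all 56, PaPe52 had 1 plant below it and PaPe76 had 2. The lowest of the 56 were PaPe6 (17.6%), PaPe87 (19.2%) and PaPe64 (19.7%). These also had the most missing calls of the 56 at these SNPs (43.0%, 26.9% and 20.4%). PaPe63 and PaPe89 had 23.8% and 23.2% missing, whereas PaPe52 and PaPe76 had fewer (9.65% and 6.75%). The part of missing calls in heterozygosity was not tested. The mean of the 4 was 16.7% ± 2.54 (SD, n = 4) against 27.0% ± 2.99 (SD, n = 56), a difference of -10.3 percentage points. At widely called SNPs the values were 23.9%, 26.4%, 29.0% and 24.2% in the same order. The 56 plants ranged from 12.7% to 34.1% with a median of 23.4%, and all 4 plants lay inside that range and above its median. Their mean was 25.9% ± 2.36 (SD, n = 4) against 23.2% ± 4.87 (SD, n = 56). The difference of 2.70 percentage points was smaller than the SD of the 56 plants, and no test of it is given, since these SNPs had a small share in the choice of the plants.

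**Figure D4:**
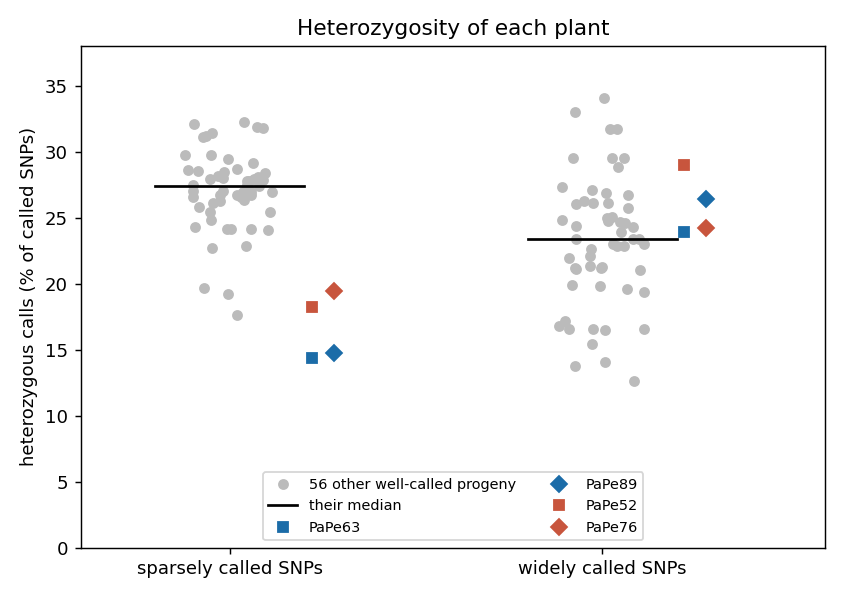
Heterozygous calls (y axis, percent of called SNPs) of each of the 56 other well-called progeny (grey, line at the median) and of the 4 plants (coloured), at sparsely and widely called SNPs. The 4 plants lie between 14.4% and 19.5% at sparsely called SNPs, at or below the lower end of the grey points, and between 23.9% and 29.0%, within the grey points, at widely called SNPs.

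All 4 plants were under the median heterozygosity of the 56 on each of the 19 chromosomes. PaPe63 was below every one of the 56 plants on 15 chromosomes, PaPe89 on 14, PaPe52 on 6 and PaPe76 on 1. The lowest values of PaPe63 (7.04%) and PaPe89 (7.80%) were on chromosome 9. On the remaining chromosomes PaPe63 lay between 12.9% and 17.0%, and PaPe89 between 13.1% and 17.5%. PaPe52 and PaPe76 had 18.9% and 20.6% on chromosome 9, and ranged over all chromosomes from 15.5% to 20.1% and from 16.2% to 21.7%. Chromosome 9 was thus low in 1 pair only, a difference that was not tested.

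Blocks of shared homozygosity were frequent in PaPe63 and PaPe89 but short. A window of 1 Mb with at least 10 SNPs called in both plants was counted when at least 90% of those SNPs were homozygous and alike. PaPe63 and PaPe89 had 80 such windows of 859 (9.31%), and PaPe52 and PaPe76 had 6 of 869 (0.690%). Among 1764 other pairs the count ran from 0 to 10 with a median of 1, so that only PaPe63 and PaPe89 lay beyond it. Between the pairs the counts were 0, 0, 1 and 1. In the median window 75.8% of SNPs were homozygous and alike in PaPe63 and PaPe89 and 63.6% in PaPe52 and PaPe76, against 28.4% to 50.5% in the other pairs. Chromosome 9 held 12 of the 80 windows, 34.3% of its 35 windows, followed by 21.4% on chromosome 14 and 18.2% on chromosome 13. Chromosomes 17 and 19 held none.

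The 80 windows fell into 58 runs, 41 of them a single window. The longest run was 5 windows on chromosome 1 (positions 24001892 to 28998541), where PaPe63 and PaPe89 were alike and homozygous at 580 of 601 SNPs (96.5%). There 2.08% of calls were heterozygous in PaPe63 and 1.51% in PaPe89, against 21.1% in PaPe52, 21.9% in PaPe76 and a median of 30.9% in the 56 plants. PaPe52 and PaPe76 were opposite homozygotes to them at 317 of the 535 SNPs called in all 4 plants. The next in order had 3 windows each, on chromosome 2 (101077946 to 103997849, 324 of 343 SNPs alike) and chromosome 9 (8017863 to 10970675, 212 of 225). Heterozygosity of PaPe63 was 2.71% in the former and 0.826% in the latter. PaPe52 and PaPe76 had no run longer than 1 window. The first 3 in map order were on chromosome 3 (27 of 30 SNPs), chromosome 5 (28 of 31) and chromosome 6 (34 of 36), and each rested on few SNPs. Coordinates are those of the deposited table, whose genome build no source used here states, and genes in these blocks were not analysed here.

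At 64112 sparsely called SNPs all 4 plants were called, and at 27493 of these (42.9%) the pairs were opposite homozygotes. All 4 plants were the same homozygote at only 6561 (10.2%). PaPe63 and PaPe89 were heterozygous and PaPe52 and PaPe76 homozygous at 6098 (9.51%), the reverse held at 7413 (11.6%), and all 4 were heterozygous at 119 (0.186%). At the remaining 16428 (25.6%) at least 1 pair was not alike. Where the pairs were opposite, the rarer allele belonged to PaPe63 and PaPe89 at 13313 SNPs (48.4%) and to PaPe52 and PaPe76 at 14180 (51.6%), so neither pair held the rarer allele throughout. The share of opposite SNPs was highest on chromosomes 9 (50.3%), 7 (45.8%) and 17 (45.4%) and lowest on chromosomes 11 (37.2%), 14 (38.2%) and 2 (38.8%). Over all 19 chromosomes the median was 41.9%, with an SD of 2.98 between chromosomes. At widely called SNPs the pairs were opposite at 311 of 6539 (4.76%).

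Single SNPs show what these calls look like. The SNPs given are, on the 5 chromosomes with the most opposite SNPs, those with the most of the 56 plants called, the lowest position being taken among ties. At chromosome 1, position 273049, PaPe63 and PaPe89 were T, PaPe52 and PaPe76 were A, both parents were T, and the 56 plants were 25 T, 20 heterozygous and 11 A. At chromosome 3, position 203477, the pairs were T and A, Pa was heterozygous and Pe was T, and the 56 plants were 31 T, 24 heterozygous and 1 A. At chromosome 6, position 105147, the pairs were again T and A and the parents as before, with 27 T, 12 heterozygous and 17 A. In these 3 cases the other plants held both alleles in unequal shares.

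The other 2 SNPs differed in kind. At chromosome 2, position 422196, PaPe63 and PaPe89 were A and PaPe52 and PaPe76 were C, whereas both parents and 54 of the 56 plants were heterozygous. At chromosome 5, position 50500, PaPe63 and PaPe89 were A, PaPe52 and PaPe76 were G, and both parents and all 56 plants were heterozygous. Such SNPs were frequent where the pairs were opposite. At 5352 of the 27493 opposite SNPs (19.5%) at least 90% of the 56 plants were heterozygous, and at 2415 (8.78%) all called plants were. Both parents were also heterozygous at 4942 of the 5352 (92.3%). At SNPs called in the 4 plants where the pairs were not opposite, the corresponding share was 0.587% (215 of 36619). By chromosome, the share among opposite SNPs was 14.9% to 23.0%.

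Where the pairs were opposite, both alleles were present in the 56 plants. Of their calls, 26.9% were homozygous for the allele of PaPe63 and PaPe89, 47.2% heterozygous and 25.9% homozygous for the allele of PaPe52 and PaPe76. The share of the PaPe63 and PaPe89 allele per plant was 50.5% ± 0.374 (SD, n = 56), with extremes of 49.6% and 51.3%. Since the rarer allele belonged to each pair at a similar share of these SNPs, a mean near 50% follows from how the SNPs were chosen. Per SNP the spread was far wider. The median share was 50%, the 5th percentile 20.8% and the 95th 79.5%, and 82.3% of SNPs lay between 25% and 75%. Mean heterozygosity of the 56 plants per SNP was 46.9% where the pairs were opposite and 27.9% at the other SNPs called in all 4 plants. The frequency of the rarer allele moved with it, with medians of 0.406 and 0.255, and its part in the difference was not tested. At the 311 widely called opposite SNPs, the 56 plants were 45.8% and 48.6% homozygous and only 5.66% heterozygous.

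The parents did not sort with the pairs. Of 26235 opposite SNPs called in both parents, Pa and Pe had the same call at 16269 (62.0%) and both were heterozygous at 8687 (33.1%). Pa was homozygous for the PaPe63 and PaPe89 allele and Pe for the other at 1737 (6.62%), and the reverse held at 1763 (6.72%). Both parents were homozygous for the PaPe63 and PaPe89 allele at 4016 SNPs (15.3%) and for the PaPe52 and PaPe76 allele at 3566 (13.6%). At these SNPs a cross of the recorded parental calls has no source for the allele that the other pair carried. The 56 plants carried that allele too, with 23.6% of calls homozygous for it in the first set and 25.5% in the second. Where both parents were heterozygous, 82.6% of calls of the 56 plants were heterozygous, and the homozygotes were 8.72% for the allele of PaPe63 and PaPe89 and 8.68% for that of PaPe52 and PaPe76.

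Where 1 pair was heterozygous and the other homozygous, the homozygous pair nearly always had the commoner allele. A heterozygous pair carries the rarer allele, so this restates that both pairs seldom carried it. The homozygous pair had the commoner allele at 98.2% of the 6098 SNPs with PaPe63 and PaPe89 heterozygous and at 98.9% of the 7413 with PaPe52 and PaPe76 heterozygous. The 56 plants segregated alike at both kinds of SNP. They were 51.5% homozygous as the homozygous pair, 41.2% heterozygous and 7.31% homozygous for the other allele in the first set, and 52.04%, 40.5% and 7.42% in the second.

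Departures of the homozygotes of the 56 plants from 1:1 were as common where the pairs were opposite as over the sparsely called SNPs at large. They were less common there than at the other SNPs called in all 4 plants. With at least 20 homozygous plants, an exact two-sided binomial test per SNP with Benjamini-Hochberg adjustment called 11132 of 18355 opposite SNPs (60.7%), against 60.1% of all 94333 sparsely called SNPs tested. The share was near this background, which is no result about the pairs. That background includes SNPs not called in all 4 plants, whereas every opposite SNP was called in all 4. At the SNPs called in the 4 plants where the pairs were not opposite, 29269 of 35790 departed (81.8%). The median frequency of the rarer allele also differed, at 0.406 where the pairs were opposite and 0.255 where they were not. The cause of the lower share at opposite SNPs was not tested. The excess was on the side of PaPe63 and PaPe89 at 5725 SNPs and on that of PaPe52 and PaPe76 at 5407. The test compares the 2 homozygote classes only. Where 1 recorded parent is heterozygous and the other homozygous, a cross gives just 1 homozygote class. A departure from 1:1 at such a SNP, as at the chromosome 3 SNP shown, is thus no sign of distorted segregation. Among the SNPs shown, those on chromosomes 1 (exact binomial adjusted p = 0.0483) and 3 (adjusted p = 7.6e-08) passed and that on chromosome 6 (adjusted p = 0.250) did not. At the chromosome 1 SNP both recorded parents were T, and at the chromosome 6 SNP 1 parent was heterozygous. The recorded parental calls thus give no 1:1 ratio of homozygotes at these SNPs. Passing or not passing there cannot tell distorted from regular segregation. The other 2 had too few homozygotes to be tested.

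By chromosome, the share of the PaPe63 and PaPe89 allele in the 56 plants was close to even, with chromosome 9 the highest and chromosome 11 the lowest. On chromosome 9 the mean was 54.8% ± 1.75 (SD, n = 56), and all 56 plants were above 50% (50.8% to 58.2%). There 30.1% of calls were homozygous for the PaPe63 and PaPe89 allele and 20.3% for the other, and 266 of 360 departing SNPs (73.9%) leaned towards PaPe63 and PaPe89. On chromosome 11 the mean was 47.4% ± 3.20 (SD, n = 56), the plants ranged from 40.8% to 53.1%, and 37.7% of departing SNPs leaned that way. On the other 17 chromosomes the mean was between 48.1% (chromosome 12) and 51.6% (chromosome 13), with plants on both sides of 50%. PaPe63 and PaPe89 alone carried the rarer allele least often on chromosome 9 (29.8%) and most often on chromosome 11 (44.9%). The order of the listed alleles comes from data that include the same 56 plants, so these shares and those of the 56 plants are tied to each other. Chromosome 9 was low in heterozygosity and rich in shared blocks in the same pair. Shared blocks and opposite SNPs both require homozygous calls, so these values of chromosome 9 are not separate observations. Values of 1 chromosome rest on SNPs that are not independent of each other, and the differences between chromosomes were not tested.

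**Figure D5:**
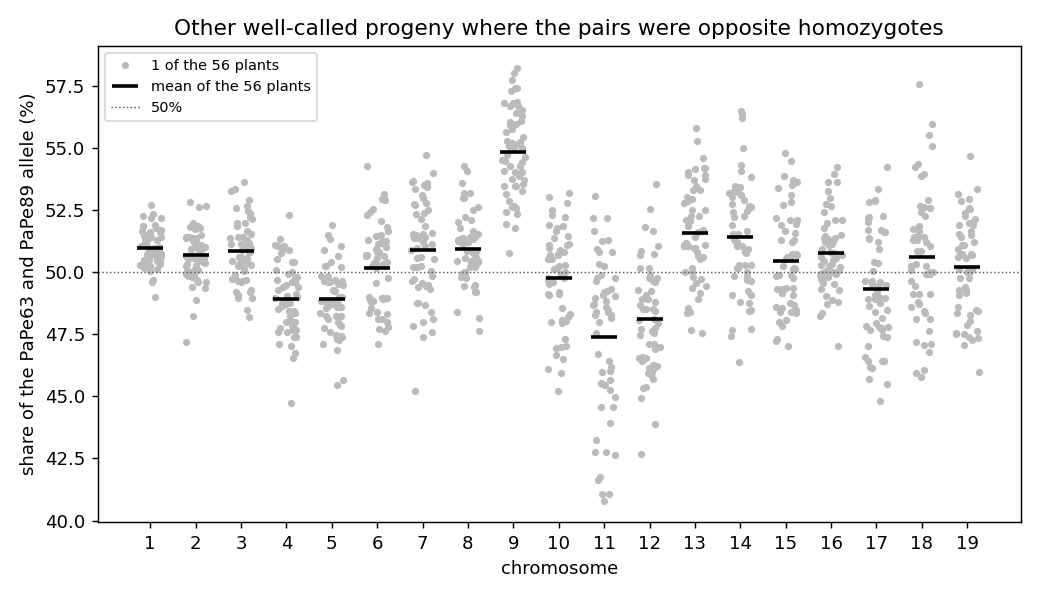
Share of the PaPe63 and PaPe89 allele (y axis, percent) in each of the 56 other well-called progeny (points, mean as a dash) at sparsely called SNPs where the pairs were opposite homozygotes, by chromosome. The axis starts above 0. On chromosome 9 all points lie above 50% (mean 54.8%), on chromosome 11 the mean is 47.4%, and on the other chromosomes points lie on both sides.

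A plant's share on 1 chromosome did not go with its share on another. Over the 171 pairs of chromosomes the Pearson correlation across the 56 plants had a median of 0.00049, with extremes of -0.35 and 0.36. Along a chromosome, the sign of the correlation between opposite SNPs was kept over short distances. For neighbouring opposite SNPs within 64 bp of each other, about the length of a sequence tag, the correlation of the dosage of the PaPe63 and PaPe89 allele across the 56 plants had a mean of 0.92 (11435 SNP pairs), and 92.2% of values exceeded 0.5. From 64 bp to 1 kb the mean was 0.15 (2711 SNP pairs). From 1 to 5 kb it was 0.02 (1043 SNP pairs), with 6.33% of values above 0.5 and 4.22% below -0.5. From 5 to 50 kb the mean was 0.00091 (4771 SNP pairs), and positive and negative values were about equally frequent, with 5.24% above 0.5 and 4.40% below -0.5. The mean r2, which ignores sign, was 0.0876 at 1 to 5 kb, 0.0846 at 5 to 50 kb and 0.0724 beyond 50 kb. These correlations are descriptions across the same 56 columns, and neighbouring pairs share SNPs. Correlations of calls do not show whether alleles were inherited together.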

How the data were processed

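The authors called SNPs from single-end GBS reads with the TASSEL-GBS pipeline and Bowtie 2 at default settings, and deposited 1 table of genotype letters with 115866 entries. Its own name states a nearest-neighbour imputation and a minor allele frequency filter of 0.05. The genome build is stated in no source used here. No depth is given, so no limit from depth could be computed. Columns of unknown identity used numbered 0. Letters at SNPs with 2 base alleles were read as 0, 1 or 2 copies of the second allele listed, and a missing call was left out of each comparison that needed it. Members, SNP sets and measures were chosen with earlier results of these data known. No gene was named. Plants other than the 4 and the parents were named only as nearest neighbours, at a limit, as lowest in heterozygosity or as left out in an alternative. Chromosomes were named as the 3 highest and 3 lowest shares of opposite SNPs and where all 19 are described, and blocks as the 3 longest runs per pair. The ratio of rarer-allele sharing, the overlap of missing calls, the SNPs with nearly all plants heterozygous, the correlation of neighbouring SNPs and chromosome label 20 were added after the data were seen. The tools were pandas 2.3.3, scipy 1.17.1 and numpy 2.4.6 under Python 3.11.15, and the steps were tested on simulated calls.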

Additional observations from a re-analysis of the deposited data

How the results depend on the processing

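Of 76 alternatives to 12 results, 44 left the value within 1 SD between chromosomes (plants for heterozygosity), or a count within 1.5 times. Of these 44, 1 could not change. Heterozygous calls as missing leave the 27493 opposite SNPs as they were, since only homozygotes are counted there. With alleles drawn at random from each plant, the distances were 0.146 (PaPe63 and PaPe89) and 0.231 (PaPe52 and PaPe76). With heterozygous calls as missing they were 0.0597 and 0.138, and 0.709 between the pairs. With 1 SNP per 5 kb, PaPe52 and PaPe76 were 0.179 apart, and the pairs were opposite at 6956 SNPs (42.8% of those called). There 2582 SNPs departed from 1:1 (57.1% of those tested), and PaPe52 and PaPe76 had 3 shared windows. At SNPs missing in more than 40% of columns, PaPe63 and PaPe89 were 0.126 apart, and the pairs were 0.725 apart and opposite at 1955 SNPs (55.1%). The PaPe63 and PaPe89 allele made up 47.8%, 724 SNPs departed from 1:1 (39.0% of those tested), and heterozygosity differed by -17.8 percentage points. The share departing over all SNPs of these sets is not given, so the 57.1% and 39.0% are no result about the pairs. At widely called SNPs the distances were 0.291, 0.329 and 0.339 between the pairs. Shared windows numbered 288 (PaPe63 and PaPe89) and 26 (PaPe52 and PaPe76) at a threshold of 80%, 37 and 1 at 95%, and 31 and 0 with windows of 2 Mb. With 1 plant of each pair, 16754 SNPs (PaPe63 and PaPe52) and 17646 (PaPe89 and PaPe76) departed from 1:1, 61.5% and 61.2% of those tested. Chosen after seeing the data, label 20 gave distances of 0.269, 0.279 and 0.377 between the pairs. The mean ratio of rarer-allele sharing between the pairs, 0.147 in the report, was 0.190 with 1 SNP per 5 kb, 1.19 at widely called SNPs and 1.07 on label 20. The difference in heterozygosity at widely called SNPs was between 1.66 and 3.36 percentage points in its 7 alternatives. Where the cause of a move is not given, it was not tested. No paired analysis was possible because the plate numbers belong to libraries that pool many plants, and each plant has 1 column. Of PaPe4, PaPe15, PaPe20 and PaPe51, set to be left out as an alternative, only PaPe20 was well called. The number of calls sets the precision, and the depth behind them is unknown.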
